A study of Mus musculus with 10 samples.

Results

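Wnt7a, Lmx1b and En1, the genes that set the dorsal and ventral sides of the limb, were followed at every probe set of the array annotated to exactly 1 of them. They were 6 probe sets of 45101 and 3 genes of the 18193 that had a probe set annotated to 1 gene symbol. Wnt7a had 3 probe sets, Lmx1b had 2 and En1 had 1, and 0 further probe sets were annotated to several genes that include one of the 3. The choice used the annotation and no measured value, so probe sets of low signal were kept.

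In the limb bud, Wnt7a is a secreted Wnt ligand made by the dorsal ectoderm, and it induces Lmx1b in the mesenchyme beneath. Lmx1b is a LIM homeodomain transcription factor that gives this mesenchyme its dorsal identity, so that limbs without it form ventral structures on both sides. En1 is a homeodomain repressor made by the ventral ectoderm under BMP signalling, where it keeps Wnt7a off. Wnt7a and En1 are thus transcripts of the ectoderm and Lmx1b is a transcript of the mesenchyme.

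RNA of limb buds from mouse embryos was measured on 10 Affymetrix arrays that the labels divide into 5 wild type and 5 Dicer mutant samples, numbered 1 to 5 in each. Dicer is the RNase that releases mature microRNAs from their precursor hairpins, and its gene is Dicer1. One parent of the embryos had a single floxed Dicer allele and the prxcre driver, and the other parent was homozygous for the floxed allele. It follows from this cross that every embryo of either group inherited at least 1 floxed allele, and the cross also gives heterozygotes, whose place in the 2 groups the labels do not state. The Prx1 limb enhancer drives Cre in limb mesenchyme and not in limb ectoderm, so in the mutant the ectoderm that makes Wnt7a and En1 keeps its own Dicer. The labels give neither the stage, nor fore- or hindlimb, nor the number of embryos behind an array. The p-values measure only the spread between these samples, which may be technical. In such bulk RNA, fewer cells of a type and less RNA per cell cannot be told apart.

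Dicer1 itself went against the labels on both arrays numbered 2, and differences between the groups are therefore given for all 10 arrays and for the 8 arrays without them. Its probe set 1427941_at read 425, 233, 372, 390 and 706 on wild type arrays 1 to 5 and 226, 360, 221, 215 and 205 on mutant arrays 1 to 5. The array labelled wild type 2 thus lay among the mutants and the one labelled mutant 2 among the wild types. In the 10 arrays the log2 difference, mutant minus wild type, was -0.74 (SE 0.246; limma adjusted p = 1). In the 8 arrays it was -1.08, but the pair was left out because of these same Dicer1 values, so this is a description and no test of Dicer1. The second Dicer1 probe set, 1460571_at, gave -0.36 (SE 0.148; limma adjusted p = 1) in the 10 arrays and, again as a description, -0.57 in the 8. Whether these probe sets lie within the floxed exons was not stated.

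Array medians lay between 145.9 and 152.8, and no value was rescaled. The first principal component (37.7% of the variance) set the 6 arrays numbered 1 to 3 apart from the 4 numbered 4 and 5, in both groups, and the labels do not say what a number stands for. By their mean over the 10 arrays, 9 of 9 limb mesenchyme markers were at or above the median signal of all probe sets. They include Tbx5, typical of the forelimb, and Tbx4, typical of the hindlimb. On wild type array 4 Tbx4 was below that array's median of 152.15. Tbx4 read 192, 273, 205, 137 and 160 on wild type arrays 1 to 5 and 298, 214, 320, 208 and 220 on mutant arrays 1 to 5. In the 8 arrays every mutant lay above every wild type, with a log2 difference of 0.58 (SE 0.168; limma adjusted p = 0.216), and in the 10 arrays the groups overlapped, with 0.40 (SE 0.181; limma adjusted p = 1). Tbx5 differed by -0.21 (SE 0.137; limma adjusted p = 0.778) in the 8 arrays and by -0.11 (SE 0.134; limma adjusted p = 1) in the 10. The part of these limb-type markers in the group comparisons was not tested. By the same mean over the 10 arrays, 17 of 18 surface ectoderm markers were at or above the median. The brightest 4 were the keratin Krt5 (534 to 985), the desmosome protein Dsp (472 to 755) and the adhesion proteins Epcam (494 to 618) and Cdh1 (458 to 657), so ectoderm, the source of Wnt7a and En1, was included in every sample.

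Promoters of Wnt7a and Lmx1b are shown because a probe set of each gave the closest match of signals across arrays between different member genes, described further on, so the pair was chosen after its values were seen. Each run is the 250 bases before a RefSeq transcription start in GRCm38.p6, on the strand of the gene. Wnt7a's lies at chr6:91411354-91411603, minus strand, outside the annotated span of Wnt7a and overlapping Gm30437. Lmx1b's lies at chr2:33641099-33641348, minus strand, with 110 of its bases inside the widest annotated span of Lmx1b, and it overlaps C130021I20Rik. Capitals mark GC boxes (GGGCGG) and CCAAT boxes (CCAAT) on either strand.
Wnt7a: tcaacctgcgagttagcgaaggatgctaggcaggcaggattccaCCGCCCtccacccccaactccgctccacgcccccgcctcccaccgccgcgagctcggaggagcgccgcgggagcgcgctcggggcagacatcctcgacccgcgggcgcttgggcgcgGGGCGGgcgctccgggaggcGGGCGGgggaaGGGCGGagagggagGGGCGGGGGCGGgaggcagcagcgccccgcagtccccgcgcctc
Lmx1b: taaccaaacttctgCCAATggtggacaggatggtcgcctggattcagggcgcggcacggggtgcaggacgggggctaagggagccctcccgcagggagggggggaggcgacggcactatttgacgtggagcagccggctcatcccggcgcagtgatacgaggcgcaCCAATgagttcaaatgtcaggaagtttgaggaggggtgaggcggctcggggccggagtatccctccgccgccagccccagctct
The Wnt7a run held 77.6% G and C, with 5 forward and 1 reverse GC boxes and 0 CCAAT boxes. The Lmx1b run held 65.2% G and C, with 0 GC boxes and 2 forward CCAAT boxes. Of 32851 RefSeq promoter windows of this length, 32.7% held a GC box and 33.8% a CCAAT box. The homeodomain core TAATTA (4.8% of windows) and the TCF/LEF core CTTTGA (13.8% of windows) had 0 matches in either run. The arrays measured transcripts, so these letters are a description of the windows only.

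Wnt7a, the dorsal ligand, did not pass the test at any of its 3 probe sets, and its groups overlapped at each. Values are deposited signal intensities, and levels of different probe sets are not compared because each hybridises in its own way. At 1447647_at, the one with the highest signal and designed to an expressed sequence tag, wild type arrays 1 to 5 read 388, 316, 295, 313 and 330, and mutant arrays 1 to 5 read 404, 299, 359, 295 and 339. Array 1 was the highest of both groups, and 3 of 5 numbers were higher in the mutant. Means were 328 ± 35.6 in wild type and 339 ± 45.2 in the mutant (SD, n = 5 each), and 331 ± 40.4 and 349 ± 45.3 without the arrays numbered 2 (SD, n = 4 each). The log2 difference was 0.043 (SE 0.105) in the 10 arrays and 0.074 (SE 0.117) in the 8.

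At 1423367_at, designed to a cDNA of Wnt7a, wild type arrays 1 to 5 read 138, 147, 141, 124 and 135, and mutant arrays read 141, 125, 156, 112 and 108. The mutant arrays spread more widely than the wild type arrays, with mutant 3 the highest and mutants 4 and 5 the lowest of all 10. Means were 137 ± 8.5 and 128 ± 20.1 (SD, n = 5 each), and 134 ± 7.5 and 129 ± 23.1 without the arrays numbered 2. The log2 difference was -0.10 (SE 0.099) in the 10 arrays and -0.07 (SE 0.117) in the 8. The remaining probe set, 1458334_at, was near the bottom of the array: its mean was at percentile 4.5 of all probe sets. It read 37.5, 33.2, 32.5, 45.9 and 39.6 in wild type and 39.2, 33.7, 38.3, 31.0 and 37.8 in the mutant. Its log2 difference was -0.06 (SE 0.107) in the 10 arrays and -0.08 (SE 0.120) in the 8.

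Lmx1b, the dorsal mesenchymal factor and the member made by the cells in which Cre acts, also did not pass the test. At 1421769_at, designed to its RefSeq mRNA, wild type arrays 1 to 5 read 169, 149, 151, 183 and 177, and mutant arrays read 161, 157, 165, 161 and 179. The range of the mutants lay wholly inside that of the wild types. Means were 166 ± 15.2 and 165 ± 8.5 (SD, n = 5 each), and 170 ± 13.9 and 167 ± 8.6 without the arrays numbered 2. The log2 difference was -0.0053 (SE 0.074) in the 10 arrays and -0.026 (SE 0.078) in the 8. Its highest signal was 1.22-fold its lowest, where the median over all probe sets was 1.36-fold.

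At 1441729_at, an expressed sequence tag assigned to Lmx1b and well above the array median, wild type arrays read 643, 623, 559, 442 and 589, and mutant arrays read 693, 521, 717, 446 and 469. Mutants 1 and 3 were the highest of the 10, while mutants 4 and 5 and wild type 4 were the lowest. Means were 571 ± 78.9 and 569 ± 127 (SD, n = 5 each), and 558 ± 84.8 and 581 ± 143 without the arrays numbered 2. The log2 difference was -0.021 (SE 0.151) in the 10 arrays and 0.038 (SE 0.178) in the 8.

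En1, the ventral ectodermal repressor, had the widest spread of the members and gave the least precise comparison. Its probe set 1418618_at read 53.1, 55.2, 57.3, 31.6 and 19.7 in wild type and 59.1, 44.7, 35.5, 33.0 and 27.4 in the mutant. The lowest and the highest wild type arrays enclosed 4 of the 5 mutant arrays. Means were 43.4 ± 16.8 and 39.9 ± 12.4 (SD, n = 5 each), and 40.4 ± 17.8 and 38.8 ± 14 without the arrays numbered 2. The log2 difference was -0.06 (SE 0.295) in the 10 arrays and 0.0011 (SE 0.341) in the 8. Its mean was at percentile 5.1 of all probe sets, and its highest signal was 3.01-fold its lowest, against a median of 1.51-fold for the dimmest 10% of probe sets. Without detection calls, the distance of this signal from background is unknown.

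**Figure D1:**
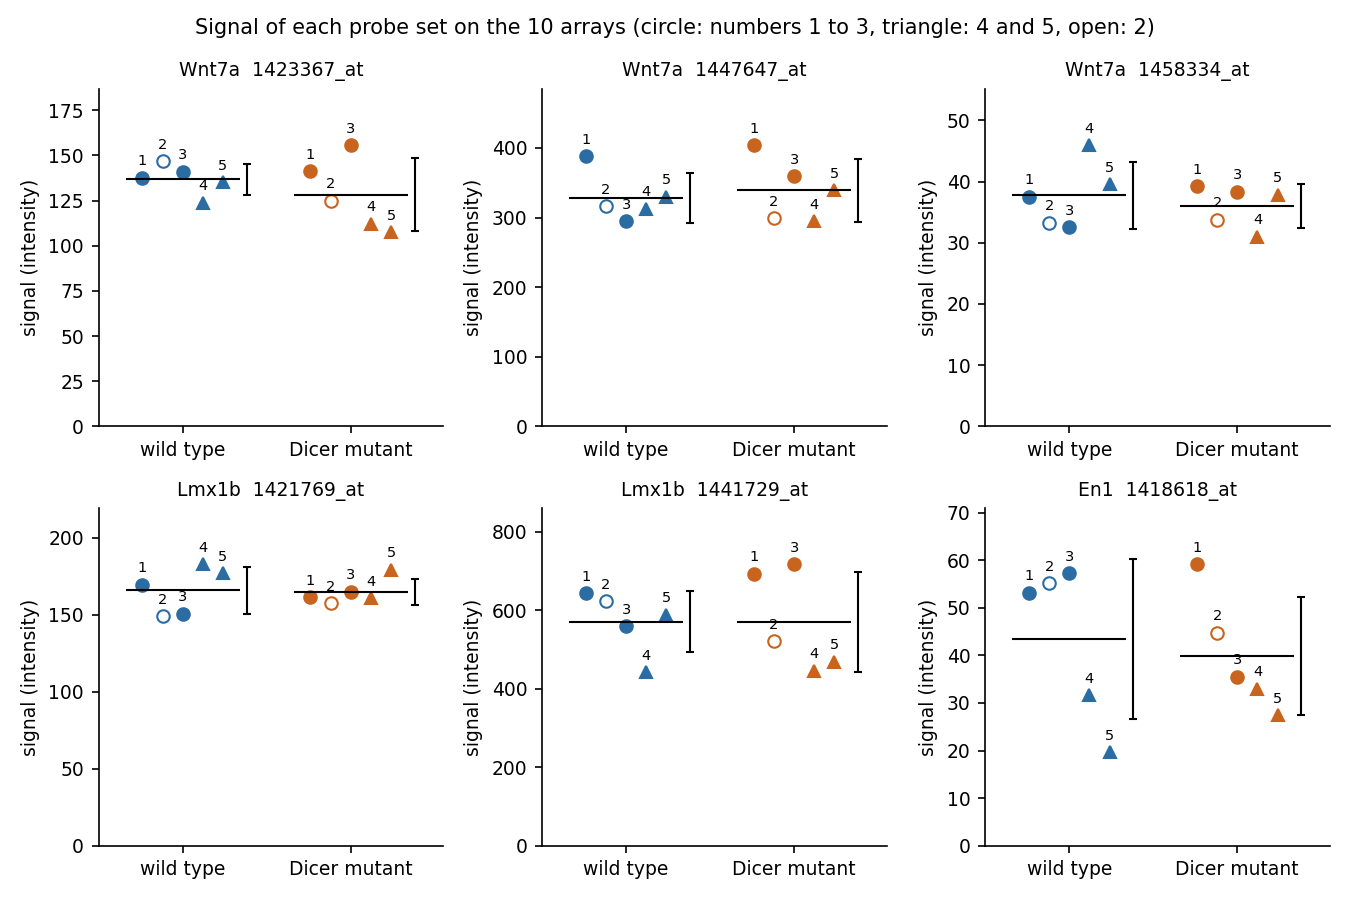
Signal intensity of the 6 probe sets of Wnt7a, Lmx1b and En1 on each of the 10 arrays by group, each axis starting at 0, with numbers from the labels, a line at the group mean and a bar of ± 1 SD (n = 5). The groups overlap in every panel, and the En1 arrays numbered 4 and 5 (19.7 to 33.0) lie under those numbered 1 to 3 (35.5 to 59.1).

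Over the members together, 0 of 6 passed a limma adjusted p of 0.05 in the 10 arrays, where 0% of the 45037 probe sets tested were called, and 0 of 6 had an unadjusted p under 0.05, against 1275 of all probe sets (2.83%). Among the 8 arrays 0 of 6 were called, where 0.655% of probe sets were (295 of 45037), and again 0 of 6 had an unadjusted p under 0.05, against 9.25% of all. The smallest limma adjusted p among the 6 was 1 in the 10 arrays and 0.947 in the 8. The median log2 difference of the members was -0.041 and -0.012, beside -0.011 and 0.001 over all probe sets tested.

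The 95% intervals of limma, unadjusted for the number of probe sets, bound how large a difference these arrays leave possible. The mutant over wild type ratio in the 8 arrays lay between 0.87 and 1.11 at Lmx1b 1421769_at and between 0.78 and 1.35 at Lmx1b 1441729_at. For Wnt7a it lay between 0.79 and 1.14 at 1423367_at, between 0.88 and 1.26 at 1447647_at and between 0.78 and 1.14 at 1458334_at. For En1 it lay between 0.59 and 1.69. The bounds in the 10 arrays were 0.89 to 1.11 and 0.78 to 1.24 for the same Lmx1b probe sets, 0.80 to 1.08, 0.88 to 1.21 and 0.82 to 1.13 for those of Wnt7a, and 0.62 to 1.5 for En1.

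With the replicate number as a block in the fit, most bounds were narrower, and En1 changed most. Its standard error in the 8 arrays went from 0.341 to 0.174 and its ratio interval to 0.76 to 1.32 (limma adjusted p = 0.999). The blocked En1 interval in the 10 arrays was 0.75 to 1.23, from a standard error of 0.155. Lmx1b 1441729_at was bounded by 0.87 and 1.21 in the blocked 8 arrays, while Wnt7a 1458334_at had wider bounds than without the block, 0.76 and 1.17. No member was called with the block. The test missing its threshold does not show that the groups are alike. A compressed signal scale at low intensity would make ratios of the dim probe sets too small, and the labels do not name the summarization.

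**Figure D2:**
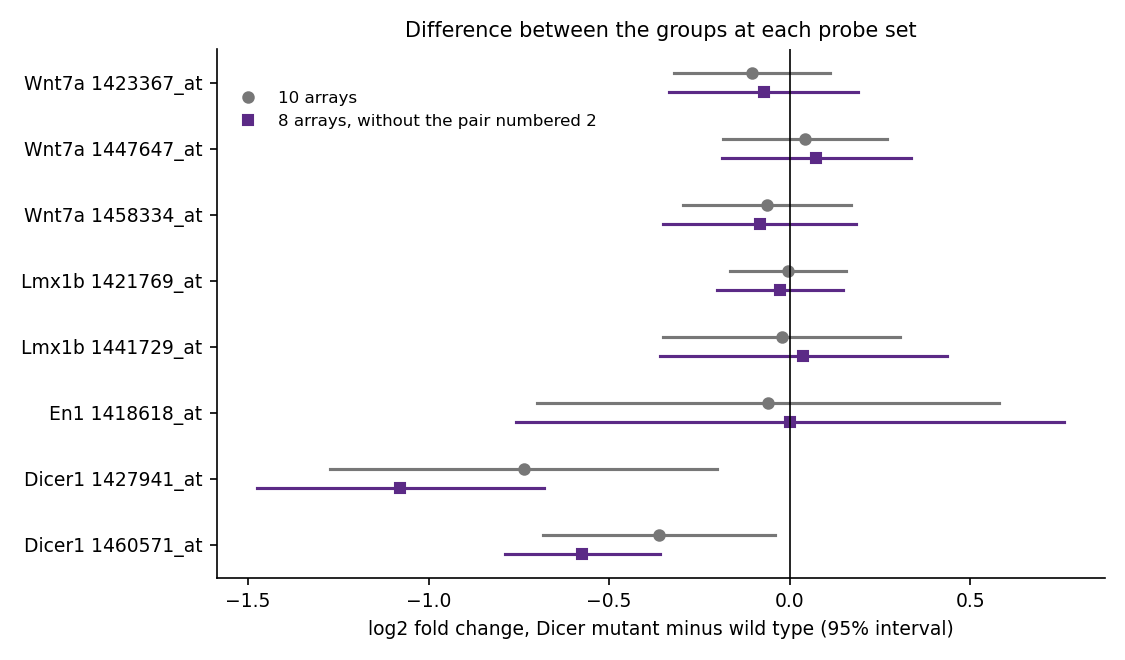
Log2 difference, mutant minus wild type, with its 95% limma interval at each probe set of the 3 genes and of Dicer1, for 10 arrays (circles) and for 8 arrays without the pair numbered 2 (squares; for Dicer1 a description only), fitted without a block. Every interval of Wnt7a, Lmx1b and En1 includes 0, and the En1 interval runs from -0.76 to 0.76 in the 8 arrays.

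En1 signals divided the arrays by number. Arrays numbered 1 to 3 read 35.5 to 59.1 and arrays numbered 4 and 5 read 19.7 to 33.0, with no overlap and a log2 difference of -0.87 (4 and 5 minus 1 to 3), a 1.83-fold ratio of geometric means. As the division was drawn from these same arrays, it has no test here. It separated 13.9% of all probe sets tested and 3.4% of the dimmest 10%. Summed signals of 2 marker lists moved the same way: limb mesenchyme was 13512 to 14431 on numbers 1 to 3 against 11959 to 12424 on 4 and 5, and nerve and Schwann cell markers, with 3 of 5 on the array, were 514 to 602 against 438 to 463. Lists that moved the other way were the apical ectodermal ridge, the Fgf-producing rim of the bud (997 to 1224 against 1256 to 1575), and endothelium (1223 to 1386 against 1405 to 1853). Surface ectoderm markers overlapped, at 6482 to 7762 against 6227 to 6835. Single markers did not all follow their sums. Tbx5, of the mesenchyme list, was higher on 4 and 5 (481 to 589 against 619 to 766). Fgf4, of the ridge list, was lower there (189.1 to 210.2 against 163.5 to 176.6). Among endothelial markers Kdr divided the numbers (330 to 364 against 489 to 736) and the others overlapped. Among nerve and Schwann cell markers only Sox10 divided them (256 to 281 against 200 to 215). The part of these lists in the En1 signal was not tested.

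The other members differed less by number. Lmx1b 1441729_at was lower on numbers 4 and 5 by a log2 difference of -0.365, Wnt7a 1423367_at by -0.241 and Wnt7a 1447647_at by -0.096. Lmx1b 1421769_at was higher there by 0.138 and Wnt7a 1458334_at by 0.10. In all 5 of these the arrays of the 2 sets of numbers overlapped.

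Wnt7a and Lmx1b signals ran together across arrays (r from 0.68 to 0.88) at 3 of the 6 pairings of their probe sets. Over 10 arrays, log2 signals of Wnt7a 1423367_at and Lmx1b 1441729_at had Pearson's r of 0.88 and Spearman's rho of 0.87, and over the 8 arrays 0.88 and 0.83. Within the 6 arrays numbered 1 to 3 the r was 0.78, after centring each set of numbers it was 0.74, and without the 2 arrays farthest from the Wnt7a median it was 0.85. Wnt7a 1447647_at followed the same Lmx1b probe set with r of 0.68 (rho 0.68), 0.74 over the 8 arrays and 0.52 without the 2 farthest arrays. Wnt7a 1458334_at followed the other Lmx1b probe set, 1421769_at, with r of 0.79 (rho 0.77), and 0.76 over the 8 arrays. The other 3 pairings did not run together over the 10 arrays: Wnt7a 1423367_at had r of -0.43 with Lmx1b 1421769_at, 1447647_at had 0.27 with it, and 1458334_at had 0.04 with Lmx1b 1441729_at. In the same order, r was 0.04, 0.78 and 0.83 within numbers 1 to 3, and 0.18, 0.71 and 0.41 after centring. Which pairings ran together thus depended on the arrays that entered and on the division by number. En1 had r of 0.45, 0.20 and -0.37 with Wnt7a 1423367_at, 1447647_at and 1458334_at. With Lmx1b 1421769_at and 1441729_at it had -0.73 and 0.42. After centring these En1 values were, in the same order, -0.45, -0.12, -0.22, -0.36 and -0.54. All of these are descriptions over 10 arrays, among 15 pairs of probe sets, of signals that share library and scan.

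Over the 10 arrays, probe sets of the same gene had r from -0.33 to 0.46. The pair of Lmx1b probe sets had -0.33 (rho -0.24), and 0.53 within numbers 1 to 3. Wnt7a 1423367_at had 0.37 with 1447647_at and 0.06 with 1458334_at, and 0.30 and 0.33 within numbers 1 to 3. Wnt7a 1447647_at and 1458334_at had 0.46, and 0.94 within numbers 1 to 3. The value thus depended on which arrays entered. Patterns across arrays are therefore given by probe set and not by gene.

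The cell type markers varied along with some of these signals, and the sign depended on the probe set. The mean log2 signal of the 18 surface ectoderm markers had r of 0.73 with Wnt7a 1423367_at and 0.72 with Lmx1b 1441729_at, falling to 0.46 and 0.46 after centring by number. The 9 mesenchyme markers gave 0.74 and 0.78, and 0.21 and 0.40 after centring. The 6 ridge markers gave -0.05 and -0.05, and 0.87 and 0.86 after centring. Over the 8 arrays the ectoderm markers gave 0.81 and 0.94 with the same pair, the mesenchyme markers 0.80 and 0.85, and the ridge markers -0.18 and -0.20. Other probe sets of these genes differed over the 10 arrays. Lmx1b 1421769_at had r of -0.60 with ectoderm and -0.68 with mesenchyme markers, and Wnt7a 1458334_at had -0.23 and -0.36. Wnt7a 1447647_at had 0.32 and 0.28.

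For En1 the largest of these were with nerve and Schwann cell markers, at 0.86 (0.42 after centring by number), endothelium, at -0.78 (-0.40), and the ridge, at -0.72 (-0.39). Mesenchyme gave 0.67 (-0.68 after centring), muscle progenitors 0.65 (0.61) and surface ectoderm 0.60 (0.07). Most of these values thus fell toward 0 or changed sign once the division by number was removed, muscle progenitors being the exception. Over the 8 arrays the order differed: the ridge gave -0.91, nerve and Schwann cell markers 0.88 and endothelium -0.86. The part of the markers in any of these patterns was not tested.

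**Figure D3:**
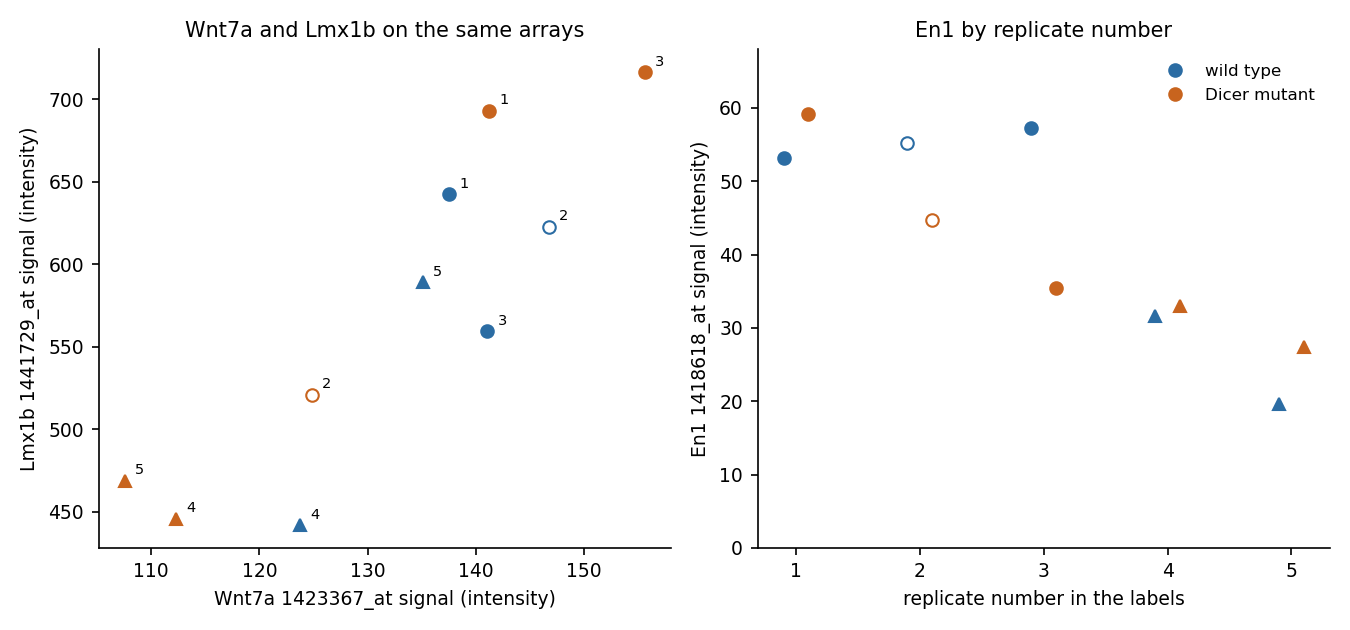
Left, signal intensity of Wnt7a 1423367_at against Lmx1b 1441729_at on the 10 arrays, on axes that do not start at 0, with the labels' numbers (circles 1 to 3, triangles 4 and 5, open symbols 2). Right, En1 signal by number, on an axis from 0; arrays numbered 4 and 5 sit between 19.7 and 33.0 in both groups.

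Summed levels of the markers of the tissues that make these genes overlapped between the groups. Summed signals of the surface ectoderm markers were 6227 to 7762 in wild type and 6386 to 6886 in the mutant, and of the limb mesenchyme markers 11959 to 13765 and 12304 to 14431. Ridge markers summed to 1160 to 1575 and 997 to 1270. In the 8 arrays the mean log2 difference was -0.001 for surface ectoderm, -0.059 for the ridge and 0.029 for mesenchyme, and in the 10 arrays it was -0.052, -0.103 and 0.028. The mesenchyme mean combined members that went both ways: 3 of 9 had an unadjusted p under 0.05 in the 8 arrays, Tbx4 at 0.58 and Pdgfra at 0.20 above and Twist2 at -0.28 below. For the 10 arrays the count was 2 of 9. Among all the marker lists, 0 genes were called in either comparison. The largest shift of a list in the 8 arrays was that of white blood cells, at 0.241 over 5 markers, of which 3 had an unadjusted p under 0.05. In the 10 arrays that shift was 0.09, and 0 of the 5 had an unadjusted p under 0.05.

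The other genes of the axis were read from 43 genes in 6 lists, 1 probe set a gene, and all 43 were on the array. Of the 43, 0 were called higher and 0 lower in the 8 arrays, where 0.402% of all probe sets were called higher and 0.253% lower, and 8 of 43 (18.6%) had an unadjusted p under 0.05, against 9.25% of all. In the 10 arrays 0 were called and 3 (6.98%) had an unadjusted p under 0.05, against 2.83%. The median log2 difference of the 43 was -0.06 in the 8 arrays and -0.056 in the 10. Groups did not overlap in 4 of 43 genes in the 8 arrays (9.3%), against 6.3% of all probe sets: Fzd10, Adgra2, Bmp2 and Tle4. Each gene was read at its brightest probe set, and 38 of the 43 were at or above the median signal. The shares over all probe sets include the dim ones, so they are not matched in signal to the 43.

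Among the genes of Wnt secretion, reception and relay, 0 of 11 were called in the 8 arrays and 3 had an unadjusted p under 0.05. Adgra2, the adhesion receptor through which Wnt7a and Wnt7b signal together with Reck, read 320, 330, 255 and 250 on wild type arrays 1, 3, 4 and 5 and 438, 422, 362 and 349 on the mutants of those numbers. All 4 mutants were above all 4 wild types, with a log2 difference of 0.45 (SE 0.121; limma adjusted p = 0.179). Limma called it once the replicate number entered as a block (adjusted p = 0.0166). Adgra2 was called in 2 of the 20 alternative fits of the 8 arrays, which are listed with the processing. Over the 10 arrays the difference was 0.30 (SE 0.134; limma adjusted p = 1). On the arrays numbered 2 it stood the other way, at 379 in wild type and 304 in the mutant. Fzd10, a Wnt receptor, differed by 0.32 (SE 0.102; limma adjusted p = 0.283), and was called with the set of numbers (1 and 3, or 4 and 5) as a block (limma adjusted p = 0.0311). Fzd10 was called in 1 of 20 alternative fits. Reck, the partner of Adgra2, named after its value was seen, differed by 0.32 (SE 0.127; limma adjusted p = 0.448). Fzd10 and Reck differed by 0.14 and 0.21 in the 10 arrays.

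Of 10 genes of BMP signalling, upstream of En1, 0 were called and 2 had an unadjusted p under 0.05, one in each direction. The ligand Bmp2 read 482, 452, 508 and 575 on wild type arrays 1, 3, 4 and 5 and 348, 341, 447 and 402 on the mutants. Every mutant lay below every wild type, and the log2 difference was -0.39 (SE 0.112; limma adjusted p = 0.204; 0.0403 with the number as a block). The receptor Bmpr2 differed the other way, by 0.33 (SE 0.093; limma adjusted p = 0.206; 0.0448 with the block). Bmp2 was called in 3 and Bmpr2 in 4 of 20 alternative fits of the 8 arrays. The targets Msx1 and Msx2 differed by -0.09 (SE 0.103) and -0.18 (SE 0.144). The differences in the 10 arrays were -0.30 for Bmp2, 0.22 for Bmpr2, -0.06 for Msx1 and -0.21 for Msx2.

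The LIM homeodomain relatives and cofactors of Lmx1b gave 0 of 8 called and 2 with an unadjusted p under 0.05. These were Lmx1a, its closest relative, with a log2 difference of 0.14 (SE 0.061; limma adjusted p = 0.524), and Ssbp2, a cofactor in LIM complexes, with -0.17 (SE 0.076; limma adjusted p = 0.524). Of 5 genes for the Engrailed relative En2 and the Groucho corepressors, through which Engrailed proteins repress, 0 were called. Tle4 differed by 0.33 (SE 0.092; limma adjusted p = 0.203), and its limma adjusted p was 0.0196 without wild type array 5. Tle4 was called in 3 of 20 alternative fits of the 8 arrays. En2 differed by 0.16 (SE 0.096; limma adjusted p = 0.714). These 4 genes differed in the 10 arrays by 0.10 (Lmx1a), -0.11 (Ssbp2), 0.16 (Tle4) and 0.14 (En2).

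Of 5 ridge and posterior signals linked to the axis, 0 were called. Shh, the posterior signal that Wnt7a helps to maintain, read 147, 98.0, 143 and 412 on wild type arrays 1, 3, 4 and 5 and 256, 343, 237 and 393 on the mutants. Wild type array 5 was the highest of these, while the other 3 wild types lay below all 4 mutants, so the groups overlapped by this 1 array. The log2 difference was 0.82 (SE 0.375; limma adjusted p = 0.559), and without wild type array 5 it was 1.24 (limma adjusted p = 0.027). Shh was called in 2 of 19 alternative fits of the 8 arrays. The ridge signal Fgf8 differed by 0.18 (SE 0.185; limma adjusted p = 0.902). Shh differed by 0.52 and Fgf8 by 0.027 in the 10 arrays; Shh on the arrays numbered 2 read 134 in wild type and 83.7 in the mutant.

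Of 4 axon guidance genes, 0 were called. Epha4, a receptor by which motor axons take the dorsal path and which limb mesenchyme also carries, differed by 0.31 (SE 0.139; limma adjusted p = 0.541). Its ligand Efna5 differed by -0.33 (SE 0.172; limma adjusted p = 0.654). With the replicate number as a block its limma adjusted p was 0.0423, and Efna5 was called in 2 of 20 alternative fits. Epha4 differed by 0.21 and Efna5 by -0.16 in the 10 arrays, and all 12 genes named by the rule had a limma adjusted p of 1 there. With that block 4 of the 43 genes were called in the 8 arrays, Adgra2 and Bmpr2 higher and Bmp2 and Efna5 lower, while the calls over all probe sets went from 295 to 1066.

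**Figure D4:**
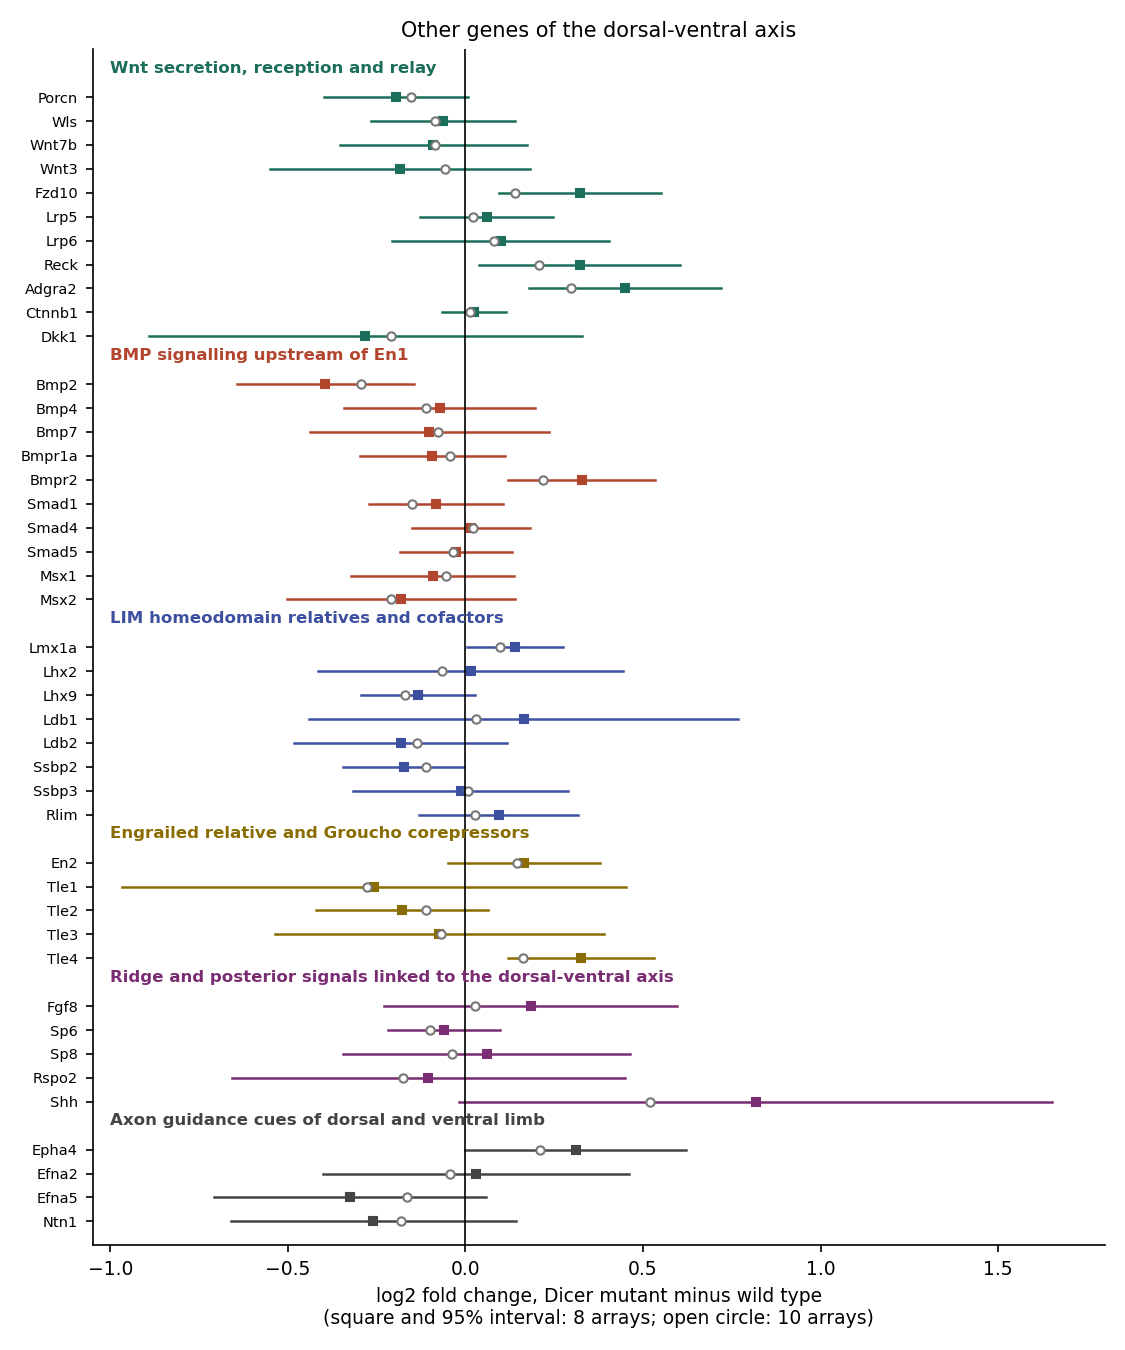
Log2 difference, mutant minus wild type, of the 43 other genes of the axis in 6 lists, with squares and 95% limma intervals for the 8 arrays and open circles for the 10 arrays. Shh has the largest difference, 0.82, and the widest interval, and 0 of the 43 genes were called.

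Genes whose signals across the 10 arrays were most like the members' were sought among 11381 genes at or above the median signal. For Wnt7a 1447647_at they were Slc1a7, a glutamate transporter (r 0.920), Sct, which encodes secretin (r 0.917), and Unc45bos (r 0.916). For Lmx1b 1441729_at they were Srsf4, a splicing factor (r 0.987), Itga3, an integrin subunit (r 0.982), and Ubash3b, a phosphatase (r 0.974). For En1 they were Sdf4, a calcium-binding Golgi protein (r 0.965), Slc18b1, a vesicle transporter (r 0.963), and Zfpl1, a Golgi protein (r 0.963). The highest of so many correlations over 10 arrays is high by selection, and the arrays share their division by number, so these values are descriptions.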

How the data were processed

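Biotin-labelled RNA of limb buds went onto Affymetrix arrays, each with 1 sample, per the labels. The authors deposited linear signal intensity values for 45101 probe sets on 10 arrays. The submitters' processing notes name GCOS version 1.3. How signals were summarized and scaled was not given in the sources used here, and neither were detection calls. Trimmed means (2%) lay between 276 and 289, so no normalization was added.

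Intensities under 1 were set to 1 and log2 was taken of the deposited values. All 45037 probe sets that are not controls were tested, without a filter on low signal, with limma 3.58.1 in R 4.3.3 (lmFit, eBayes with an intensity trend) and Benjamini-Hochberg adjustment at 0.05. The fit was tested on simulated data. With 5 or 4 arrays per group, the number of arrays limits the precision. By the platform annotation, 34945 probe sets carried 1 gene symbol, 932 carried several and 9160 carried none. Symbols were looked up in the RefSeq gene table of GRCm38.p6, and 0 were updated.

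Named were every probe set of Wnt7a, Lmx1b, En1 and Dicer1, of each pathway list the 2 genes with the smallest p in the 8 arrays and any gene called, the 4 brightest ectoderm markers, and for each member gene the 3 genes most correlated with its brightest probe set. Reck, Msx1, Msx2, Tbx4, Tbx5, Pdgfra, Twist2, Fgf4, Kdr and Sox10 were named in addition, after their values were seen. Members, lists, markers and the 8-array comparison were chosen with earlier results of these data known. Each listed gene was read at its brightest probe set, with those named _x_at or _s_at used only where there was no other. Adgra2 and Wnt3 were read at such probe sets.

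Both groups carry the numbers 1 to 5. Arrays of the same number deviated from the means of their groups with r of 0.43, -0.18, 0.27, 0.67 and 0.41 for numbers 1 to 5 in the 10 arrays, and of 0.55, 0.55, 0.71 and 0.32 for 1, 3, 4 and 5 in the 8. The highest r with another number in the 8 was 0.54, 0.54, 0.51 and 0.51. The criterion that every same-number r exceed 0.1 was met in the 8 arrays and not in the 10. It cannot tell pairing by number from the division of numbers 1 to 3 from 4 and 5. For number 5 in the 8 arrays, r was 0.32 with the same number and up to 0.51 with another. Whether a number marks a pair of samples thus remains unknown, and the labels do not say what a number stands for. The main comparisons have no block, and blocked values are given for some probe sets and genes only. Alternatives were quantile normalization, centring of array medians, offsets of 16 and 64 before log2, array weights, filters at the median and at the 70th percentile, the replicate number as a block, eBayes without the trend, pairs 1 and 3 or 4 and 5 alone, each array left out, and, added after seeing the data, the set of numbers as a block.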

Additional observations from a re-analysis of the deposited data

Results flagged for a closer look

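Wnt7a 1458334_at read 31.0 on mutant array 4, while the other 3 mutant arrays of the 8-array comparison lay between 37.8 and 39.2. The gap was 0.833 of the range of the 4 arrays, which is what marked this value. Among 24 groups of arrays examined in this way it was the 1 so marked, and chance marks about 1 group in 20. The probe set is dim, with a mean at percentile 4.5 of all probe sets.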

How the results depend on the processing

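No probe set of Wnt7a, Lmx1b or En1 was called under any alternative: of 113 refitted values in each comparison 0 passed, with a lowest limma adjusted p of 0.729 in the 10 arrays and 0.294 in the 8. Dim probe sets have no value under the filters that remove them. The sign changed in 21 of 113 in each comparison. In the 10 arrays Lmx1b 1421769_at went to 0.003, 0.005 and 0.032 with quantile normalization, centring and array weights, and Lmx1b 1441729_at to 0.006 with quantile normalization. In the 8 arrays En1 went to -0.006 with quantile normalization, -0.016 with either offset, -0.368 with array weights and -0.269 in pairs 1 and 3 alone. Array weights also gave 0.016 and -0.083 at Lmx1b 1421769_at and 1441729_at. Pairs 1 and 3 alone gave 0.090 and 0.151 at Wnt7a 1423367_at and 1458334_at and 0.030 at Lmx1b 1421769_at, and pairs 4 and 5 alone gave -0.024 at Wnt7a 1447647_at, -0.158 at Lmx1b 1441729_at and -0.142 at Fgf8. The cause was not tested.

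Leaving out each array in turn gave, in the 10 arrays, -0.178 to -0.044 at Wnt7a 1423367_at, -0.022 to 0.105 at 1447647_at, -0.113 to 0.012 at 1458334_at, -0.042 to 0.031 at Lmx1b 1421769_at, -0.112 to 0.059 at 1441729_at, -0.318 to 0.068 at En1 and -0.079 to 0.163 at Fgf8. In the 8 arrays the ranges were -0.168 to 0.010, 0.001 to 0.152, -0.165 to 0.001, -0.082 to 0.010, -0.074 to 0.154 and, for En1, -0.304 to 0.210.

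Calls over all probe sets stayed at 0 in the 10 arrays under all 20 alternatives. In the 8 arrays the 295 calls became 821 with array weights, 1066 with the replicate block, 727 in pairs 1 and 3 alone, 0 in pairs 4 and 5 alone and 1394 with the set of numbers as a block. They became 80 to 130 without any 1 array other than wild type 5, and 642 without wild type 5. Called genes among the 43 of the axis were 0 in the main comparison, 2 with array weights (Bmpr2 and Tle4), 4 with the replicate block, 4 in pairs 1 and 3 alone, 5 with the set of numbers as a block and 0 to 3 with an array left out (3 without wild type 5: Bmpr2, Tle4 and Shh). The replicate block left the difference of each member as it was and narrowed the En1 interval, and it changed no other call among the named genes. Low signal, at an unknown distance from background, limits En1 and Wnt7a 1458334_at.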
